A study of Mus musculus with 2 samples.

Results

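Enteroendocrine cells are scattered epithelial cells of the gut that sense the contents of the lumen and release peptide hormones or serotonin. The genes described here encode 9 peptide precursors (Gip, Gcg, Cck, Sct, Sst, Pyy, Nts, Ghrl and Tac1) and the enzyme that starts serotonin synthesis outside the brain (Tph1). They were chosen by symbol, as the rows of the deposited value table that the platform annotation gives to exactly 1 of these 10 genes. All 10 were found, with 1 row each, among 72688 rows and 19213 named protein-coding genes.

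Total RNA of sorted intestinal stem cells was hybridised to Affymetrix Clariom D mouse arrays, with 1 array for circPan3-/- cells and 1 array for circPan3+/+ cells. circPan3 is a circular RNA made from the Pan3 gene. Both groups carried the Lgr5GFP-CreERT2 allele, in which green fluorescent protein and a tamoxifen-inducible Cre recombinase are read from the Lgr5 gene, and GFP-positive cells were sorted from the small intestine of mice aged 8 weeks. The labels do not say how many mice gave each sample. A single array per genotype leaves every value without error or p-value, so differences compare 2 arrays. Genotype, sort and hybridisation cannot be told apart.

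Hormone genes are switched on in cells that leave the stem cell state under the transcription factor Neurog3, and a mature enteroendocrine cell stores its peptides in dense-core granules after prohormone convertases have cut them from precursors. In the small intestine K cells make the incretin Gip, I cells make Cck, S cells make Sct and L cells make the Gcg peptides together with Pyy. Nts is made by distal cells related to L cells, Sst by D cells, Ghrl by X cells, and serotonin, through Tph1, with Tac1 by enterochromaffin cells. In bulk RNA of sorted cells, more cells of such a type and more hormone RNA per cell cannot be told apart.

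A difference is the deposited log2 signal of circPan3-/- cells minus that of circPan3+/+ cells, so 1 stands for 2-fold. Having 1 array per group is what limits precision. Named protein-coding genes had a median difference of 0.27, so values after subtracting this shift are called centred. As deposited, the 2-fold rule found 1440 of these 19213 genes higher and 416 lower, against 701 and 674 after centring and 522 and 753 after loess on mean level. The background limit of each array was the 95th percentile of its 5222 negative control rows, 5.56 for circPan3-/- and 5.06 for circPan3+/+. A fold is given as a bound where the dimmer value lies under its limit, and no fold is given where both do. The stem cell receptor gene Lgr5 had a signal of 7.02 on the circPan3-/- array against 10.91 on the circPan3+/+ array. Pan3 had 5.64 in circPan3-/- against 4.84 in circPan3+/+, from 1 row for the whole gene, which gives no separate reading of the circle.

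Most hormone genes had a higher signal on the circPan3-/- array, with the incretin genes Gip and Gcg furthest apart. By the deposited values alone, whatever their place against the limits, differences of at least 1 were found for 6 of the 10, Gip, Gcg, Tph1, Ghrl, Sct and Sst, beside 7.49% of all named protein-coding genes and 9.74% of those at or above the median level of all rows, where all 10 hormone genes lay. Of these 6, Gcg and Sst were at least 2-fold higher by a fold or bound that respects the limits. Neither was so after quantile normalization. As deposited, Gip and Ghrl had bounds under 2-fold, and Tph1 and Sct, under the limits on both arrays, allow no fold. Differences of -1 or less were found for 0 of the 10, beside 2.17% of named genes. The median difference of the 10 was 1.04, against 0.27 over all named genes. Relative to that shift 3 of the 10 had a difference of at least 1 (Gip, Gcg and, under both limits, Tph1), beside 3.65% of named genes. The same 3 did so after loess (2.72% of named genes) and after quantile normalization, where the share of named genes was not calculated. Their circPan3+/+ values are repeated ones, standing in 134, 19 and 1207 rows, and among the other members only that of Pyy is. Such repeats touched 69.1% of circPan3+/+ rows against 4.2% of circPan3-/- rows, and no scaling used here removes them. Their part in these 3 differences was not tested. Above 0 were 9 of the 10, beside 74.9% of named genes. Above background on the circPan3+/+ array was Sst alone: 4 of 10 lay above the control limit in circPan3-/- cells (16.7% of named genes) and 1 of 10 in circPan3+/+ cells (17.7%).

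**Figure D1:**
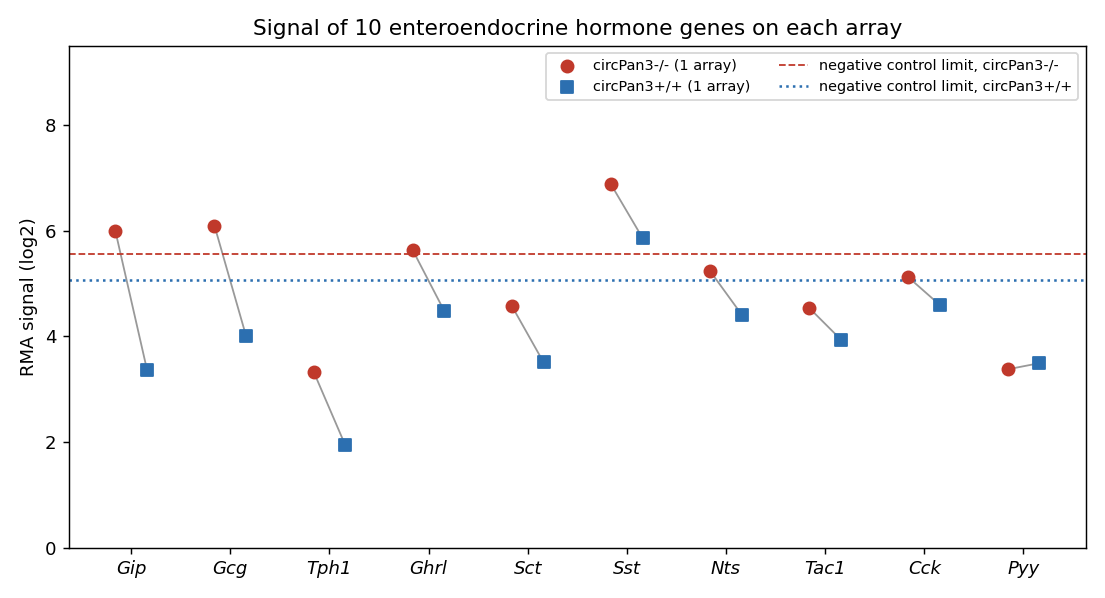
Signal (log2, vertical axis) of the 10 hormone genes, ordered by their difference, with circles for the circPan3-/- array, squares for the circPan3+/+ array and lines for the 95th percentile of negative control rows of each array; pairs are to be read within a gene. Sst lay above both limits, Gip, Gcg and Ghrl lay above the limit on the circPan3-/- array alone, and the other members lay under both.

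The 200 bases before the annotated start are shown for Gip, Gcg and Sst, the members above the limit on the circPan3-/- array that have a single start site in the RefSeq promoter table (GRCm38.p6). They are printed 5′ to 3′ on the gene's strand, with capitals marking matches on either strand to AGATAA, a motif of GATA factors, TATAA, the core of the TATA box, and TGACGTCA, the cyclic AMP response element.
Gip, chr11:96024345-96024544, plus strand: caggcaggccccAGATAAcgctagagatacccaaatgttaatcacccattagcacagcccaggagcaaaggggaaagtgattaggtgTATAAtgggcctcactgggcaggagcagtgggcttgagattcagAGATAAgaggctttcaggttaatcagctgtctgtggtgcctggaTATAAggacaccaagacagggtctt
Gcg, chr2:62483654-62483853, minus strand: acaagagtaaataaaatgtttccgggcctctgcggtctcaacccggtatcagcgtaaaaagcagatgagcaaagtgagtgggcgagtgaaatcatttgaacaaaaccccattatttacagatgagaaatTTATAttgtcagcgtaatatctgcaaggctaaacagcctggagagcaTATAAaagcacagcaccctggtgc
Sst, chr16:23890845-23891044, minus strand: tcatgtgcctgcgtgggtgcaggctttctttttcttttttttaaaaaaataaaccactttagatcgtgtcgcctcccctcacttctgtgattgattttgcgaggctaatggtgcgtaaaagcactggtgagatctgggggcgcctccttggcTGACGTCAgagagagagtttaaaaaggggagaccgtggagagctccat
Gip holds AGATAA at -188 and -69 and TATAA at -113 and -25, counted from the start site to the first base of the match. Gcg holds TATAA at -71, on the opposite strand, and at -24. Sst holds TGACGTCA at -48 and no TATAA within its window of 300 bases. The table gave 15 such windows for the 10 genes. AGATAA stood in 4 of the 15 (26.7%, against 11.2% of all 32851 windows) and TATAA in 7 (46.7%, against 24.9%). TGACGTCA stood in 1 (6.67%, against 1.79%). The E-box CANNTG, which basic helix-loop-helix factors bind, stood in 14 (93.3%, against 72.3%). Windows of the same gene can overlap, and a match of letters does not show that a factor binds.

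Gip encodes glucose-dependent insulinotropic polypeptide, which amplifies insulin release after a meal. It had a signal of 6.003 on the circPan3-/- array against 3.37 on the circPan3+/+ array, a difference of 2.63, or 2.36 after centring. The circPan3+/+ value lay under the control limit, so by the deposited values Gip was at least 1.92-fold higher. That circPan3+/+ value, identical to all deposited digits, stood in 134 rows of the table; such repeats touched 4.2% of the rows of the circPan3-/- column, against 69.1% for circPan3+/+. Among negative control rows 98.4% had a lower difference, and 81 had one at least as large. Of all named genes 99.8% had a lower difference.

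Gcg encodes proglucagon, from which L cells cut the glucagon-like peptides. Its signal was 6.10 on the circPan3-/- array against 4.002 on the circPan3+/+ array, a difference of 2.10, or 1.82 after centring and 1.63 after loess. By the deposited values it was at least 2.06-fold higher, measured from the circPan3+/+ limit. After quantile normalization 0 of the 10 members, so not Gcg either, were at least 2-fold higher by a fold or bound. A lower difference was seen in 95.7% of negative control rows, and 226 of them differed by at least as much. Gip and Gcg were the members whose difference exceeded the 95th percentile of negative control rows, 2.01. Among control rows at the mean levels that the hormone genes span, that percentile was 2.33, above Gcg. The circPan3+/+ value of Gcg stood in 19 rows.

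Pyy encodes the appetite-reducing peptide YY, which L cells release with the Gcg products. It had 3.38 on the circPan3-/- array against 3.49 on the circPan3+/+ array, a difference of -0.12, and both values lay under the limits. Pyy was the single member below the median of all named genes, at -0.39 after centring and -0.35 after loess. Its circPan3+/+ value stood in 639 rows. Nts, the neurotensin gene of distal hormone cells, had 5.24 on the circPan3-/- array against 4.41 on the circPan3+/+ array. Its difference of 0.83, or 0.55 after centring, lay between values under the limits.

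Sst encodes somatostatin, which inhibits the release of other gut hormones, and was the member with a signal above the limit on both arrays. Sst had 6.88 on the circPan3-/- array against 5.86 on the circPan3+/+ array, a difference of 1.02 or 2.03-fold. After centring the difference was 0.75, or 1.68-fold, and after loess 0.47. The 2-fold description of Sst therefore holds for the values as deposited and not after scaling. A lower difference was seen in 78.4% of negative control rows.

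Cck and Sct encode the hormones that drive gall bladder contraction and pancreatic enzyme release (cholecystokinin) and bicarbonate release (secretin). Cck had 5.12 on the circPan3-/- array against 4.59 on the circPan3+/+ array, a difference of 0.53 that was 0.25 after centring and 0.08 after loess. Sct had 4.58 in circPan3-/- against 3.51 in circPan3+/+, a difference of 1.07, or 0.79 after centring. All 4 values lay under the limits of their arrays, so no fold is given. For Cck 61.5% and for Sct 79.7% of negative control rows had a lower difference.

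Ghrl encodes ghrelin, the hunger-promoting peptide that must be acylated to act on its receptor. It had 5.63 in circPan3-/- cells, 0.08 above the limit, and 4.47 in circPan3+/+ cells. The difference was 1.16, or 0.88 after centring, and the bound was at least 1.49-fold. Mboat4, the acyltransferase of ghrelin, had 2.66 in circPan3-/- against 2.58 in circPan3+/+, both under the limits.

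Tph1 and Tac1 mark enterochromaffin cells. Tph1, tryptophan hydroxylase, had 3.33 on the circPan3-/- array against 1.94 on the circPan3+/+ array, a difference of 1.39, or 1.12 after centring and 1.22 after loess. Both values lay under the limits, and 71.9% of negative control rows were dimmer on the circPan3-/- array, against 48.3% in circPan3+/+, so no fold is given. Its circPan3+/+ value stood in 1207 rows. Tac1, the precursor of substance P, had 4.54 in circPan3-/- against 3.94 in circPan3+/+, a difference of 0.60, or 0.33 after centring, also between values under the limits. Tph1 is also expressed by mast cells, and all 10 mast cell markers lay under the limits on both arrays. Mast cell markers had a median difference of 0.31, with 2 of 10 at least 2-fold higher by the deposited values (7.49% of named genes), the mucosal mast cell proteases Mcpt1 (4.32 in circPan3-/- against 1.58 in circPan3+/+) and Mcpt2 (4.16 in circPan3-/- against 1.61 in circPan3+/+). Both of these were picked out after their values were seen, and the circPan3+/+ value of Mcpt2 is a repeated one. The genes of this protease family are close copies that probes may not tell apart. The summed linear signal of the 10 mast cell markers was 139 in circPan3-/- and 89.4 in circPan3+/+ cells, and their part in the Tph1 value was not tested.

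**Figure D2:**
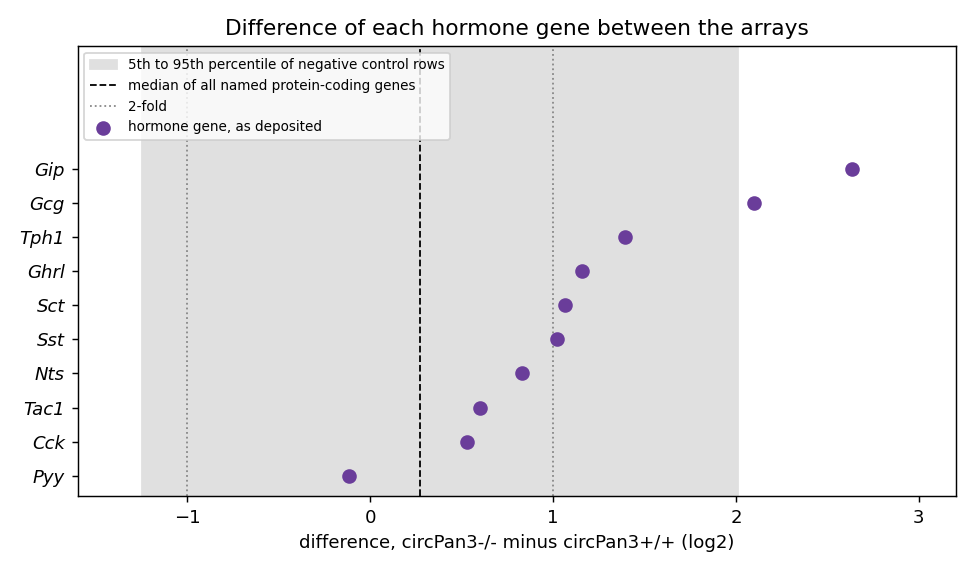
Difference of each hormone gene, circPan3-/- minus circPan3+/+ (log2, horizontal axis), as deposited, with the 5th to 95th percentile of differences of negative control rows in grey. Gip at 2.63 and Gcg at 2.10 lay beyond the grey band, and Pyy was the member below 0. For control rows at the mean levels of the hormone genes, not drawn, the 95th percentile was 2.33, above Gcg.

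Set against the negative control rows, the differences of the other 8 members lay between the 5th and 95th percentile of control rows. Differences of all control rows had a median of 0.27, a 5th percentile of -1.25 and a 95th percentile of 2.01. At least 2-fold higher were 22.1% of control rows and at least 2-fold lower 8.08%. Among the 1807 control rows at mean levels that the hormone genes span, these shares were 31.7% and 6.92%, the median was 0.50 and the 95th percentile was 2.33, above Gcg and below Gip. Of the hormone genes 6 of 10 were at least 2-fold higher as deposited, beside 7.49% of named genes. After centring (3.65% of named genes), loess (2.72%) or quantile normalization (share not calculated) 3 of 10 were. The control shares are of deposited values, and control rows moved past 2-fold more often than named genes did. The members were chosen with earlier results of these data known, so their share is a description only. Counting only folds or bounds of at least 2 by the deposited values, 2 of 10 hormone genes were higher (Gcg and Sst), beside 2.61% of named genes. None were lower, beside 0.406%.

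A second set of background rows is named by the number of G and C bases in its probes, from 3 to 25. Their signal ran from 0.54 to 6.35 in circPan3-/- and from 0.45 to 6.01 in circPan3+/+ cells, and was highest at 23 such bases on both arrays. Above the highest of these rows lay 1 hormone gene in circPan3-/- cells (Sst) and 0 in circPan3+/+ cells. Between the arrays these 23 rows differed by at most 0.54, less than 8 of the 10 hormone genes. The negative control rows spread wider, from -1.25 at the 5th percentile to 2.01 at the 95th. That range holds all hormone genes but Gip and Gcg, and at the mean levels of the hormone genes its upper end, 2.33, lay above Gcg too. The smaller spread of these 23 rows therefore does not set the hormone differences apart from background. The base composition of the probes of each hormone gene was not analysed here.

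**Figure D3:**
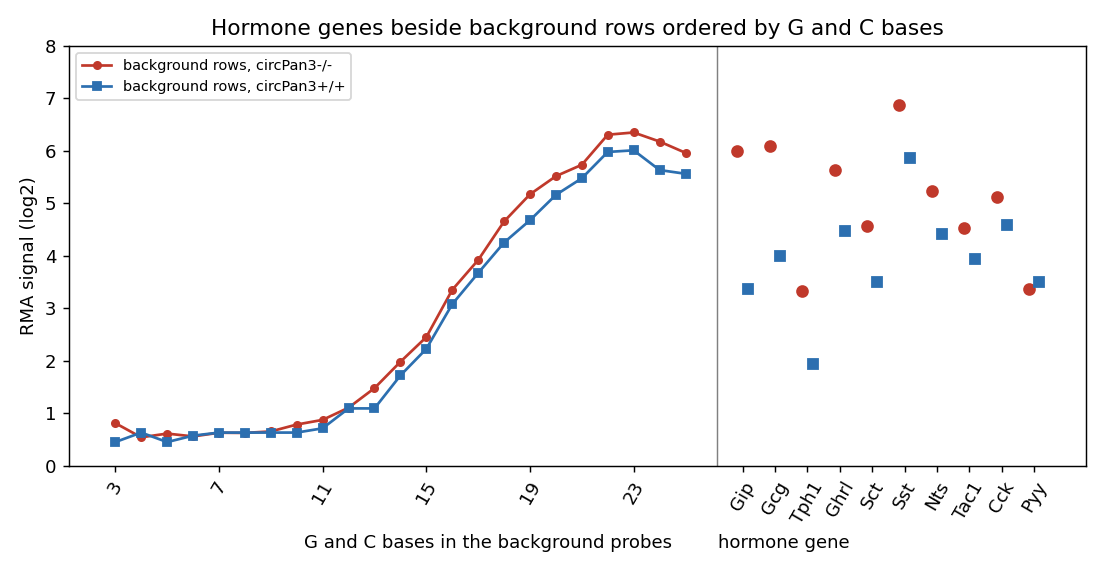
Signal (log2, vertical axis) of 23 background rows by the number of G and C bases in their probes (left) and of the 10 hormone genes (right), with circles for the circPan3-/- array and squares for the circPan3+/+ array. Sst at 6.88 in circPan3-/- cells is the single hormone value above the highest background row of its array.

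In this and the following lists, calls of 2-fold are by the deposited values and stand beside 7.49% of named genes higher and 2.17% lower (3.65% higher after centring and 2.72% after loess), and 15225 of 19213 named genes lay under the limits on both arrays. Genes of peptide processing and secretory granules had a median difference of 0.62, with 5 of 17 measured members at least 2-fold higher (4 after centring, 1 after loess), 0 lower and 12 under the limits on both arrays. Chgb, a granule core protein, had 6.82 on the circPan3-/- array against 5.43 on the circPan3+/+ array, 2.62-fold higher. Chga, its relative and the usual marker of enteroendocrine cells, had 6.48 in circPan3-/- against 5.40 in circPan3+/+, 2.12-fold higher. Both lay above the limits on both arrays, as Sst did, and Chga was named after its values were seen. The difference of Chgb was 1.11 after centring and 0.85 after loess, and that of Chga 0.81 and 0.56. The 2-fold description therefore fails after loess for both, and after centring for Chga. Ddc, the decarboxylase that completes serotonin synthesis, had 5.82 on the circPan3-/- array against 4.47 on the circPan3+/+ array, at least 1.69-fold higher. Cpe, a carboxypeptidase that trims peptide precursors, had 5.05 in circPan3-/- against 5.32 in circPan3+/+, and the granin Scg2 had 5.25 in circPan3-/- against 5.65 in circPan3+/+. The convertase gene Pcsk1, which cuts Gcg and Gip precursors in gut cells, was named after its values were seen. Pcsk1 had 4.02 on the circPan3-/- array against 2.13 on the circPan3+/+ array, both under the limits, and its circPan3+/+ value is a repeated one. It was the 1 gene of this list at least 2-fold higher after loess (1.69). Pam, which amidates peptides such as those of Cck, Pyy and Tac1, had 4.35 in circPan3-/- against 4.27 in circPan3+/+, under both limits.

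Transcription factors of the enteroendocrine lineage had a median difference of 0.87 over 14 measured genes, with 3 at least 2-fold higher (2 after centring, 3 after loess) and 0 lower. However, 12 lay under the limits on both arrays, these 3 among them. By folds or bounds 0 of the 14 were at least 2-fold higher, beside 2.61% of named genes. Neurog3, which commits cells to this lineage, had 4.14 on the circPan3-/- array against 2.80 on the circPan3+/+ array. Rfx6, a factor of later hormone cells, had 3.43 in circPan3-/- against 1.41 in circPan3+/+. Neither had a value above its limit, and both were named after their values were seen. The circPan3+/+ value of Rfx6 is a repeated one, as 69.1% of rows on that array are. Above the limit on the circPan3-/- array lay Sox4, at 5.68 in circPan3-/- against 4.77 in circPan3+/+ and at least 1.54-fold higher, and Foxa1, at 5.82 in circPan3-/- against 5.42 in circPan3+/+, a difference that turned to -0.10 after loess.

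Goblet and Paneth cell markers were also higher on the circPan3-/- array, while enterocyte and enteric neuron and glia markers had medians below 0. By the deposited values all 10 goblet cell markers and all 5 measured Paneth cell markers were at least 2-fold higher in circPan3-/- cells, with medians of 2.46 and 1.89. After centring 8 goblet and 5 Paneth markers were, and after loess 7 and 4. Counting only folds or bounds, 8 goblet and 5 Paneth markers were at least 2-fold higher. These lists were chosen with earlier results of these data known. Klk1 (8.88 in circPan3-/- against 5.48 in circPan3+/+) and Clca1 (9.93 in circPan3-/- against 6.66 in circPan3+/+) led the goblet list, and Ang4 (10.01 in circPan3-/- against 6.64 in circPan3+/+) and Itln1 (10.60 in circPan3-/- against 7.92 in circPan3+/+) the Paneth list. The summed linear signal of goblet markers was 6124 in circPan3-/- and 1260 in circPan3+/+ cells, and that of Paneth markers 8478 in circPan3-/- against 2280 in circPan3+/+. That of the 10 hormone genes was 440 in circPan3-/- against 194 in circPan3+/+. Only 4 of the 10 lay above the limit in circPan3-/- and 1 in circPan3+/+, so the hormone sums include values not above background. Of 7 tuft cell markers, all under the limits, 3 were at least 2-fold higher by the deposited values, with a median difference of 0.96 and summed signals of 120 in circPan3-/- against 59.3 in circPan3+/+, sums made up of values not above background. Differences between the lists were not tested.

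Of 9 enterocyte markers 0 were at least 2-fold higher and 4 lower, with a median of -0.51. They included Apoa4 at 6.05 on the circPan3-/- array against 8.55 on the circPan3+/+ array and Fabp1 at 5.23 in circPan3-/- against 7.59 in circPan3+/+, while Vil1 had 8.01 in circPan3-/- against 7.69 in circPan3+/+, a difference that was below 0 after loess. Their sums were 1737 in circPan3-/- and 2795 in circPan3+/+ cells. Stem cell markers went both ways: 6 of 10 were at least 2-fold higher, among those above a limit led by Slc12a2 (8.39 in circPan3-/- against 5.47 in circPan3+/+) and Prom1 (6.57 in circPan3-/- against 4.77 in circPan3+/+), and 2 were lower, Lgr5 and Olfm4 (10.28 in circPan3-/- against 11.53 in circPan3+/+). Their median was 1.37, with sums of 2043 in circPan3-/- and 5043 in circPan3+/+ cells. Neurons of the gut wall also express Tac1, Sst, Nts and Cck. Enteric neuron and glia markers had a median of -0.39, with 10 of 11 under the limits on both arrays and Snap25 at 4.97 on the circPan3-/- array against 5.64 on the circPan3+/+ array. None of the 11 was at least 2-fold higher and 1 was at least 2-fold lower. Their sums were 145 in circPan3-/- against 215 in circPan3+/+, made up mostly of values not above background. The part of any of these cell types in the hormone values was not tested.

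**Figure D4:**
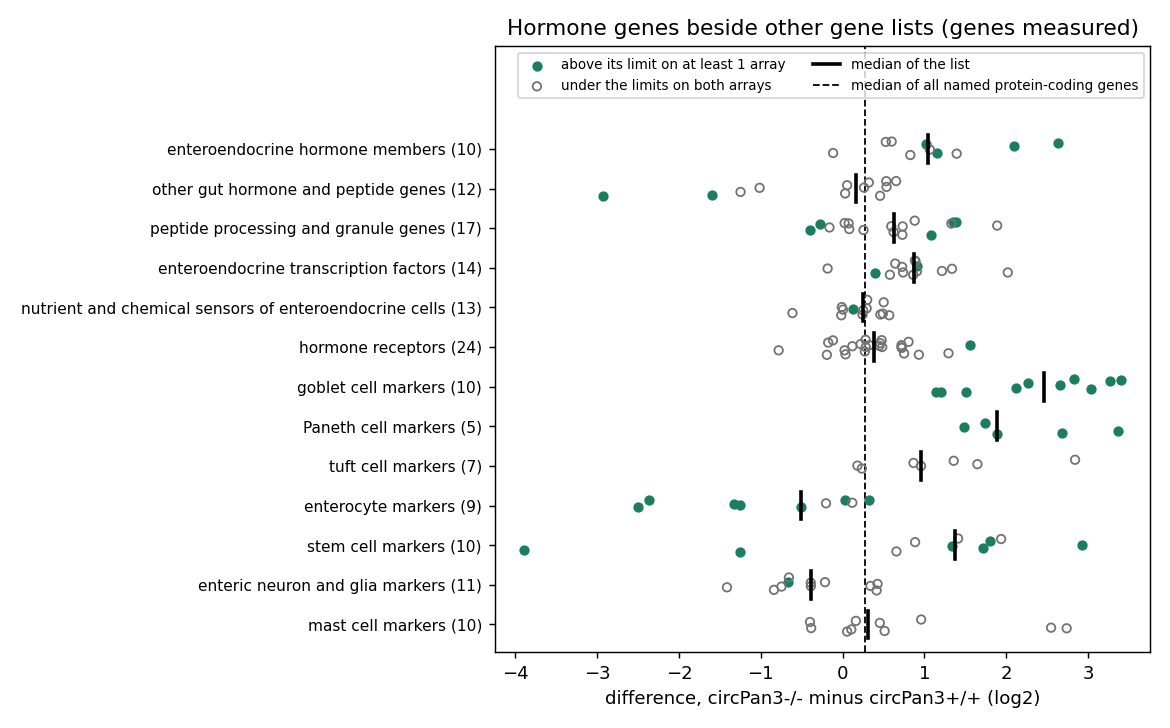
Difference of each measured gene, circPan3-/- minus circPan3+/+ (log2, horizontal axis), for the hormone genes and 12 other lists, open where both values lie under the limits, with the number of genes measured in brackets, bars for list medians and a dashed line for the median of all named protein-coding genes, 0.27. Goblet and Paneth markers lie furthest to the right of that line, hormone genes have a median of 1.04, and enterocyte and neuron and glia markers have medians below 0.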

How the data were processed

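The deposited values are log2 signals of 2 arrays, 1 value per transcript cluster, made by the authors with Affymetrix Power Tools and RMA, per the submitters' processing notes. The notes name no version and no genome build. The log2 base was taken from the range of the values, -0.18 to 13.07, because the table states no unit. The columns were not equally distributed: medians were 2.62 in circPan3-/- and 2.51 in circPan3+/+, and the share of rows whose exact value recurs in the same column was 4.2% and 69.1% in that order. Whether both arrays were processed alike is therefore not known.

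Rows were named from the platform annotation, with symbols updated through Entrez identifiers and RefSeq synonyms (GRCm38.p6). There were 31221 rows with 1 gene, 1529 with several, which were not named, and 33206 transcript clusters with no symbol. The brightest row by mean over both arrays stood for a gene. Calls used a 2-fold rule and the 95th percentile of negative control rows. RMA removes no base-composition background. No test across samples was possible with 1 array per genotype. The members and the 12 gene lists were chosen with earlier results of these data known, and the lists share no genes with the members. The named genes are all members, Pan3, Lgr5 and, of each list, up to 2 genes furthest above and 2 furthest below the median shift among those above the limit on at least 1 array; Mboat4 and Pam, under the limits, were named for their role, and Chga, Pcsk1, Neurog3, Rfx6, Mcpt1, Mcpt2, Gast and Insl5 after their values were seen. Listed genes without a row of 1 protein-coding gene were not analysed here. Alternatives were centring, loess (lowess, span 0.3), quantile normalization, the mean of all rows of a gene, a 1.5-fold rule, limits at the 90th and 99th percentile, and filters on level. A limit at the highest background row by G and C bases was added after seeing the data. Calls, bounds and scalings were tested on simulated data. Software was Python 3.11.15 with numpy 2.4.6, pandas 2.3.3, statsmodels 0.14.6 and matplotlib 3.10.9.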

Additional observations from a re-analysis of the deposited data

How the results depend on the processing

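The count of hormone genes at least 2-fold higher was 6 as deposited and 3 after centring, after loess and after quantile normalization. The count above the control limit in circPan3-/- cells was 4, and became 0 with the 99th percentile and 1 with the highest background row by G and C bases. In circPan3+/+ cells the count was 1, and became 4 with the 90th percentile, 0 with the 99th and 0 with the highest background row. The count at least 2-fold higher with bounds was 2, and became 4 with the 90th percentile, 0 with the 99th, 0 with the highest background row and 0 after quantile normalization. The median difference was 1.04 as deposited, 0.77 after centring, 0.59 after loess, 0.73 after quantile normalization and 1.63 over the 4 members above the limit on at least 1 array; 3 of these 4 (Gip, Gcg and Ghrl) pass that filter through the circPan3-/- array alone, so the filter itself favours higher values. Under centring, loess, quantile normalization and the mean of all rows, no member changed sign: of the 40 recomputed differences 36 were above 0, and the other 4 were those of Pyy. The count at least 2-fold lower was 0 under every alternative run. Using the mean of all rows of a gene changed nothing for the members, since each has 1 row. No paired analysis was possible because each genotype has 1 array. For the same reason no replicate could be left out. Signal over background also limits these results, with 6 of the 10 members under the limits on both arrays.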

Other observations

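Gut peptide genes outside the 10 members were not higher as a group. Among 12 further hormone and peptide genes the 2-fold rule found 0 higher and 4 lower in circPan3-/- cells, beside 7.49% and 2.17% of all named genes, and their median difference was 0.16. Gal, the precursor of galanin, a peptide of enteric neurons, had 3.82 on the circPan3-/- array against 6.75 on the circPan3+/+ array, at least 2.28-fold lower. Cartpt, the precursor of another neuropeptide, had 4.57 in circPan3-/- against 6.16 in circPan3+/+, at least 1.52-fold lower. The other 10 lay under the limits on both arrays, among them Gast, the gastrin gene, at 3.78 in circPan3-/- against 3.75 in circPan3+/+ and Insl5, a colonic L cell hormone gene, at 1.78 in circPan3-/- against 1.72 in circPan3+/+, both named after their values were seen. Enteric neuron and glia markers had a median difference of -0.39 between these arrays, and their part in these values was not tested.

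Of 24 measured receptor genes for the hormones 23 lay under the limits on both arrays, as did 15225 of 19213 named genes. By the deposited values 2 of the 24 were at least 2-fold higher and 0 lower, a share close to that of all named genes (7.49% and 2.17%), with a median difference of 0.39. The one above its limit was Sort1, a sorting receptor that also binds neurotensin, with 7.11 on the circPan3-/- array against 5.56 on the circPan3+/+ array, 2.93-fold higher. Of 13 nutrient and chemical sensors of enteroendocrine cells, 0 were at least 2-fold higher or lower, with a median of 0.25, and 12 lay under both limits. Slc5a1, the glucose cotransporter, had 7.06 on the circPan3-/- array against 6.94 on the circPan3+/+ array, a difference that was -0.43 after loess.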
